A study of Sus scrofa with 13 samples.

Results

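Gene expression was compared between loin muscle of Hampshire pigs with a high and with a low loin weight. The comparison takes 6 libraries, each from 1 pig, out of 13 libraries in the study. Pigs 8, 9 and 10 are labelled as having a high weight of loin and pigs 1, 2 and 3 a low one, and the other 7 libraries come from Pietrain pigs. All 6 Hampshire pigs were untreated females of 6 months, unrelated and reared in the same housing on the same feed, slaughtered at a set body weight and picked from a larger population by the loin weight found at dissection. The tissue was longissimus lumborum, the long muscle of the lower back. Of 25322 genes in the count table, 12228 passed a fixed filter on low counts and are described here. Levels are given as CPM, counts scaled to a common library total, which take no account of transcript length and so are compared between pigs and not between genes.

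Skeletal muscle is built from long multinucleate fibres packed with sarcomeres, the contractile units, and wrapped in collagen-rich connective tissue that holds fibroblasts, vessels and resident immune cells. Slow fibres rely on mitochondria and fat oxidation and use their own forms of myosin and troponin, whereas fast fibres rely on glycogen and glycolysis. Fibre size depends on the balance between ribosomes, which make protein, and ubiquitin ligases with the proteasome, which break it down. A piece of muscle holds all these cells, so that fewer cells of a type and less RNA per cell cannot be told apart in the values below.

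The libraries were those of skeletal muscle. ACTA1, skeletal muscle actin, lay between 47916 and 131270 CPM, CKM, muscle creatine kinase, between 18933 and 60112 CPM, and DES, the muscle intermediate filament desmin, between 3295 and 6634 CPM, while MYH1, MYH2, MYH4, MYH7 and TTN had no match among the genes tested. Library totals ran from 13188257 to 19654436 counts. Genes of the mitochondrial genome held 19.2% to 20.7% of the counts in the low pigs and 12.9% to 17.5% in the high pigs. The first principal component carried 55.6% of the variance and placed the 3 high pigs on one side and the 3 low pigs on the other. Every pair of pigs within a group differed by more than counting noise, with chi-square per degree of freedom of 23.7 to 68.2.

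In total, 3256 genes were differentially expressed (DEGs; adjusted p under 0.05 and at least a 1.2-fold change in edgeR's quasi-likelihood test), which is 26.6% of the genes tested. Of these, 1468 were higher in the high pigs (12%) and 1788 were lower (14.6%). The high and low pigs did not overlap in 5589 genes, or 45.7%. An exact permutation test on 3 against 3 pigs cannot go below p = 0.1, so every call comes from the model fitted over all genes, and its p-values measure the spread among 3 pigs per group. Without low pig 3 the count of DEGs was 1224, without high pig 10 it was 1760, and without high pig 9 it was 2091, while leaving out any of the other pigs gave 2179 to 3049.

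Fold changes followed gene span, the distance between the annotated start and end of a gene. The 9945 genes with coordinates were ranked by span into 10 bins of like size, and the bin of shortest genes (median 1.86 kb) had a median log2 fold change of 0.476 (high against low), with 31.3% of its genes higher and 5.92% lower. In the bin of longest genes (median 142 kb) the median was -0.338, with 3.52% higher and 31.1% lower. Across genes, which are not independent replicates, Spearman's rank correlation between span and log2 fold change was -0.386. Within each library, the same correlation between span and the gene's deviation from the mean of the 6 pigs was 0.246 to 0.359 in the low pigs and -0.33 to -0.271 in the high pigs, so that the trend and the loin groups cannot be told apart.

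Each gene with coordinates was therefore also tested relative to genes of like span, by taking a smooth curve of expression on span out of each library. The medians of the bins then lay between -0.0055 and 0.126, and 2373 genes were DEGs (23.9%), 1139 higher (11.5%) and 1234 lower (12.4%). Both fits called 782 genes higher and 1021 lower. The adjustment dropped 535 higher and 463 lower calls, added 357 and 213, and turned none from one direction to the other. Span-adjusted values are given beside the counted ones, and the 2283 tested genes without coordinates, among them most slow fibre genes, have none.

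**Figure D1:**
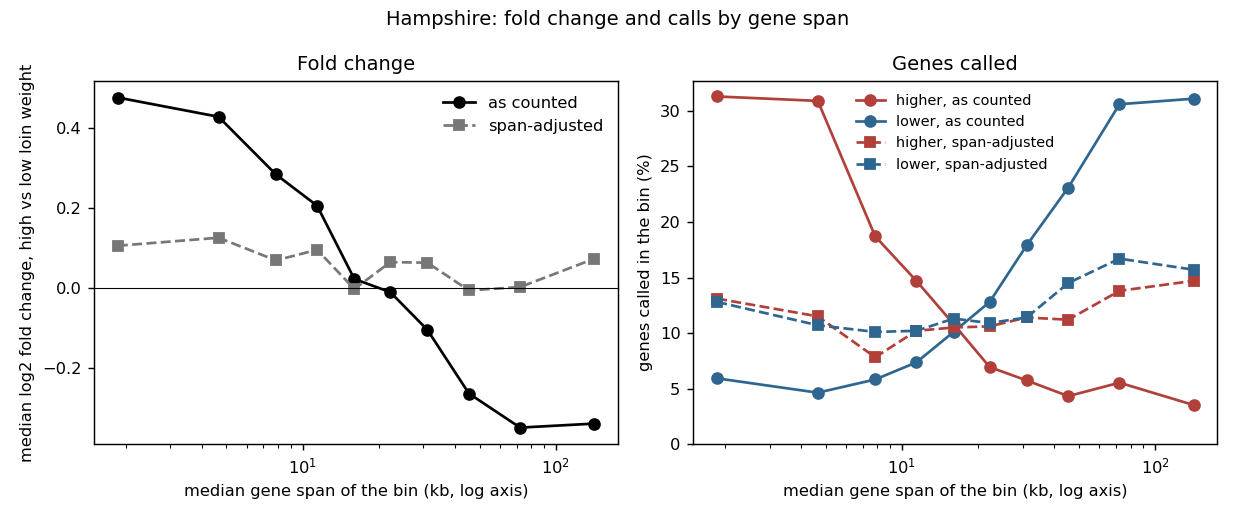
Fold change and calls by gene span. The left panel plots the median log2 fold change (high against low loin weight) of each of 10 bins of genes against the median span of the bin in kb on a log axis, and the right panel plots the percentage of genes called higher (red) or lower (blue). As counted (circles) the median runs from 0.476 in the bin of shortest genes to -0.338 in that of longest genes, and after the adjustment (squares) it stays between -0.0055 and 0.126.

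Genes of the ribosome rose together. Of 57 cytosolic ribosomal protein genes tested, 56 rose and none fell, against 12% of all genes that rose, and their median log2 fold change was 0.976 as counted and 0.647 span-adjusted, beside 0.029 and 0.062 for all genes. Ribosomal protein genes are short (median span 3.851 kb), and 38 of the 57 were still called after the adjustment. Their summed level was 22219, 17729 and 17607 CPM in low pigs 1, 2 and 3 and 35537, 42859 and 31481 CPM in high pigs 8, 9 and 10. All 3 high pigs lay above all 3 low pigs. RPL13 (ENSSSCG00000024974, chromosome 6, 517793 to 520205 on Sscrofa10.2), a protein of the large subunit, had 329, 314 and 261 CPM in the low pigs and 694, 841 and 560 CPM in the high pigs. The log2 fold change of RPL13 was 1.21 ± 0.202 (SE; adjusted p = 0.00553), and 0.87 span-adjusted. The identifier named RPS16, a protein of the small subunit (ENSSSCG00000010712, chromosome 14, 143655389 to 143658147), rose by 1.38 ± 0.231 (adjusted p = 0.00569). It had 16, 8.7 and 12.1 CPM in the low pigs and 31.8, 28.8 and 34.8 CPM in the high pigs. Whether this locus is a processed copy of the gene was not tested. Of the 57 genes, 22 were called without low pig 3 and 37 without low pig 2. Ribosomal protein genes have many processed copies in the genome, and reads shared with a copy may be split between them.

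Mitochondrial ribosomal proteins, which serve the translation of the mitochondrial genome, rose in 25 of 60 genes and fell in none, with a median of 0.475 (0.329 span-adjusted, 13 higher). This count fell to 8 without low pig 3, 12 without high pig 9, 13 without low pig 2 and 14 without high pig 10. Translation factors were split, with 14 higher and 9 lower of 50. EIF4EBP1, the repressor that binds the cap-binding factor eIF4E when mTOR signalling is low, had 52.7, 54.3 and 48.1 CPM in the low pigs and 101, 168 and 119 CPM in the high pigs, a log2 fold change of 1.32 ± 0.207 (adjusted p = 0.00446). EIF3L, a subunit of the initiation complex eIF3, rose by 0.88 ± 0.167 (adjusted p = 0.00818), whereas its large partner EIF3A fell by 0.91 ± 0.167 (adjusted p = 0.00732). EIF4G2, a scaffold used in cap-independent initiation, lay at 1078, 981 and 1197 CPM in the low pigs and 529, 628 and 429 CPM in the high pigs, a log2 fold change of -1.04 ± 0.197 (adjusted p = 0.00815) that was -1.15 span-adjusted. The factors gave 5 higher and 3 lower calls without low pig 3, 8 and 5 without low pig 2, 9 and 4 without high pig 10, and 5 lower without high pig 9.

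The proteasome, the complex that degrades ubiquitin-tagged protein, had 12 genes higher and 3 lower of 38, with a median of 0.435 as counted and 0.33 span-adjusted (6 higher and 1 lower). The 12 higher calls became 1 without low pig 2, 3 without low pig 3 or high pig 9, 5 without high pig 10 and 6 without high pig 8.

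Nuclear genes of the respiratory chain, which passes electrons to oxygen and drives ATP synthesis, rose in part and fell in none. Complex I, the NADH dehydrogenase, had 16 of 35 subunit genes higher (median 0.59, span-adjusted 0.483 with 10 higher). Complex IV, cytochrome c oxidase, had 8 of 12 (0.791, span-adjusted 0.625 with 7 higher), complexes II and III 3 of 10 (0.283) and ATP synthase 4 of 11 (0.591). Span-adjusted, complexes II and III had 1 of 10 higher (0.11) and ATP synthase 1 of 11 (0.274). Both shares were near the 11.5% of all genes that were higher in that fit. COX4I1 (ENSSSCG00000029034, chromosome 6, 3453458 to 3459813), a core nuclear subunit of complex IV, had 348, 328 and 264 CPM in the low pigs and 608, 765 and 586 CPM in the high pigs. The groups did not overlap, and the log2 fold change was 1.06 ± 0.19 (adjusted p = 0.0069). COX6A2 and COX7A1, the muscle forms of their subunits, rose by 1.26 ± 0.259 (adjusted p = 0.0105) and 1.02 ± 0.229 (adjusted p = 0.0143), and without low pig 3 their adjusted p became 0.0532 and 0.0669. Leaving out low pig 3 left complex I with 3 genes called higher, complex IV with 3, complexes II and III with 0 and ATP synthase with 1. Without high pig 9 these counts were 7, 5, 1 and 1, and without low pig 2 they were 8, 5, 0 and 2.

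The genes that the mitochondrial genome itself encodes moved the other way. Of 13 tested, 2 had a log2 fold change above 0, beside 6309 of all 12228 genes. None rose and 3 fell, against 14.6% of all genes that fell, with a median of -0.271. Because these genes are very short, the span adjustment made them lower still, with a median of -0.682 and 7 called lower. ND4L, a complex I subunit, had 1118, 1306 and 1357 CPM in the low pigs and 364, 508 and 473 CPM in the high pigs, a log2 fold change of -1.49 ± 0.195 (adjusted p = 0.00255). It spans 0.297 kb and ends at position 11365, within ND4, which starts at 11359. ND4, a further subunit of complex I, had a log2 fold change of -0.588 ± 0.227. It was not called as counted (adjusted p = 0.0839) and was called lower span-adjusted (-0.961). How reads shared by these genes were counted was not tested. ATP8, an ATP synthase subunit, fell by 0.92 ± 0.189 (adjusted p = 0.0108). ND5, another complex I subunit, fell by 0.85 ± 0.224 (adjusted p = 0.0249), a call lost without low pig 2, low pig 3 or any 1 of the high pigs (adjusted p up to 0.0929). COX1, a catalytic subunit of complex IV, had a log2 fold change of -0.41 ± 0.23 and was not called as counted (adjusted p = 0.216). The summed level was 216663, 172437 and 172645 CPM in the low pigs and 134760, 146634 and 172759 CPM in high pigs 8, 9 and 10, so that high pig 10 lay within the range of the low pigs.

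Genes of mitochondrial fatty acid oxidation had 7 higher and 1 lower of 21 (median 0.381, span-adjusted 0.435), with 4 higher and 0 lower without low pig 3. CPT1A (ENSSSCG00000012880, chromosome 2, 2815220 to 2874163), a form of the carnitine transferase that admits long-chain fatty acids to the mitochondrion, had 2.57, 3.89 and 5.27 CPM in the low pigs and 13.4, 14.6 and 29.2 CPM in the high pigs. Its log2 fold change of 2.29 ± 0.367 (adjusted p = 0.00485) was 2.61 span-adjusted. ETFB, which passes electrons from fat oxidation to the respiratory chain, rose by 1.22 ± 0.189 (adjusted p = 0.00434), and FABP3, a fatty acid carrier of oxidative muscle, by 1.2 ± 0.232 (adjusted p = 0.00863). The citric acid cycle was divided, with 2 higher and 2 lower of 18 and a median of -0.079.

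Slow fibre genes had a median of 1.734, with 6 of 7 higher and none lower. Their summed level was 2819, 6342 and 3799 CPM in the low pigs and 16950, 12416 and 11692 CPM in the high pigs, and every high pig lay above every low pig. TNNI1 (ENSSSCG00000024061), the inhibitory slow troponin, had 325, 721 and 367 CPM in the low pigs and 2690, 2162 and 1748 CPM in the high pigs, a log2 fold change of 2.22 ± 0.331 (adjusted p = 0.00372). TNNT1, the slow troponin that binds tropomyosin, rose by 2.13 ± 0.319 (adjusted p = 0.00376) and TNNC1, the calcium-binding slow troponin, by 2.06 ± 0.269 (adjusted p = 0.00255). These genes had no coordinates and thus no span-adjusted value, and 5 or 6 of the 7 were called whichever pig was left out. MYH6, a cardiac-type myosin heavy chain, had a log2 fold change of 1.17 ± 0.374 (adjusted p = 0.0469), its groups overlapped, and the call was lost without low pig 1, low pig 3 or any 1 of the high pigs (adjusted p up to 0.148).

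Fast fibre genes had 0 higher and 1 lower of 11 in edgeR's test, with a median of 0.431. The lower one was MYH8, the perinatal myosin heavy chain, with 74697, 41686 and 43874 CPM in the low pigs and 26323, 12457 and 28785 CPM in the high pigs. MYH8 had a log2 fold change of -1.25 ± 0.374 (adjusted p = 0.039) and the call was lost whichever pig was left out (adjusted p up to 0.093). Myosin heavy chains are near-identical neighbours, and since MYH1, MYH2, MYH4 and MYH7 had no match, reads of other myosins may be counted under MYH6 and MYH8, whose values are uncertain.

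**Figure D2:**
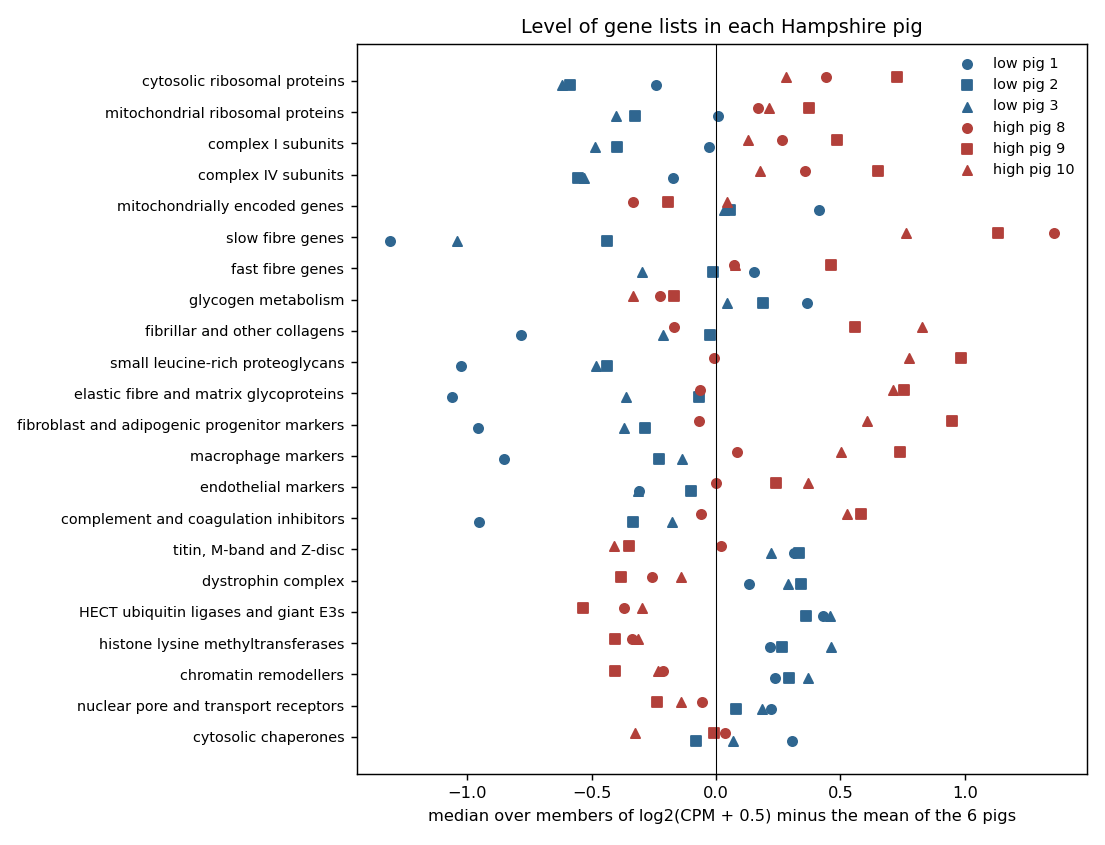
Level of 22 gene lists in each Hampshire pig. The horizontal axis is the median over the members of log2(CPM + 0.5) minus the mean of the 6 pigs, with red symbols for the 3 high pigs and blue for the 3 low pigs. Slow fibre and ribosomal protein genes lie higher in all 3 high pigs, and ubiquitin ligases and histone methyltransferases lie lower, while high pig 8 lies nearer to the low pigs than high pigs 9 and 10 do for the collagen list.

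Part of the genes that store and release glycogen fell. Of 19 glycogen genes, 7 fell and none rose, against 14.6% of all genes that fell, with a median of -0.457 (-0.31 span-adjusted, 4 lower). PPP1R3A, the muscle subunit that brings a phosphatase to glycogen, had 746, 470 and 571 CPM in the low pigs and 243, 249 and 228 CPM in the high pigs, groups that did not overlap, and fell by 1.31 ± 0.202 (adjusted p = 0.00429). PHKA1, a regulatory subunit of muscle phosphorylase kinase, fell by 1.04 ± 0.2 (adjusted p = 0.00855), and SLC2A4, the insulin-responsive glucose transporter GLUT4, by 1.15 ± 0.218 (adjusted p = 0.00811). GYS1, muscle glycogen synthase, fell by 0.76 ± 0.178 (adjusted p = 0.0166), a call lost without low pig 3 or high pig 10 (adjusted p up to 0.0663). PYGM, the muscle phosphorylase, lay higher in every high pig than in any low pig but was not called (log2 fold change 0.41 ± 0.217, adjusted p = 0.186). The list summed to 25064, 22127 and 22356 CPM in the low pigs and 21450, 30794 and 24492 CPM in the high pigs, ranges that overlapped. Leaving out low pig 3 or high pig 10 left 4 of the 19 genes called lower.

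AMPK is the kinase that senses low cellular energy, and its list here holds its subunits and upstream kinases. It had 10 genes tested, 1 symbol having more than 1 identifier, with 1 higher and 3 lower and a median of -0.531. Over the 9 with coordinates the median was -0.223 as counted and -0.459 span-adjusted. PRKAA2, the catalytic subunit of muscle, had 144, 149 and 133 CPM in the low pigs and 69.1, 54.7 and 63.6 CPM in the high pigs, a log2 fold change of -1.18 ± 0.159 (adjusted p = 0.00276). PRKAB2, a scaffold subunit, fell by 1.65 ± 0.265 (adjusted p = 0.00488). PRKAG3, the muscle gamma subunit whose variant is known to set glycogen content in Hampshire pigs, had 23.7, 28.5 and 31.0 CPM in the low pigs and 21.2, 13.8 and 10.0 CPM in the high pigs. PRKAG3 had a log2 fold change of -0.89 ± 0.266 (adjusted p = 0.039), and the call was lost without low pig 2, low pig 3, high pig 9 or high pig 10 (adjusted p up to 0.129). The single higher gene of the list was not called without low pig 1, 2 or 3 or high pig 9 or 10.

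Glycolysis had 5 higher and 1 lower of 17 and a median of 0.462 (0.376 span-adjusted, 2 higher and 1 lower). The identifier named LDHB, the heart-type lactate dehydrogenase (ENSSSCG00000013171, chromosome 2, 12622307 to 12623588), rose by 1.42 ± 0.229 (adjusted p = 0.0049). It went from 23.6, 37.2 and 22.8 CPM in the low pigs to 79.1, 83.6 and 61.3 CPM in the high pigs. This locus spans only 1.28 kb, and whether it is a processed copy of the gene was not tested. HK2, the muscle hexokinase that traps glucose, fell by 1.96 ± 0.373 (adjusted p = 0.00815), from 23.4, 23.3 and 22.1 CPM to 8.02, 2.25 and 7.2 CPM. The 5 higher calls became 1 without low pig 3 or high pig 9, 2 without low pig 2, and 3 without low pig 1 or high pig 10.

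Proteoglycans and glycoproteins of the connective tissue matrix rose in large part, and collagens and other matrix genes in smaller part. Small leucine-rich proteoglycans, which coat and space collagen fibrils, rose in 8 of 13 genes (median 1.134, span-adjusted 1.145) and elastic fibre and matrix glycoproteins in 14 of 27 (1.122, span-adjusted 1.279), with none lower. Collagens rose in 4 of 18 (median 0.822), and over the 13 with coordinates the median went from 0.887 as counted to 1.26 span-adjusted with 8 called higher. Collagen-processing genes had 2 of 24 higher, below the share of all genes, and 5 higher and 1 lower of 20 span-adjusted, above it. Basement membrane and integrin genes had 4 higher and 0 lower of 21 span-adjusted, and as counted 3 higher and 5 lower of 23, or 0 higher and 1 lower without low pig 3 or high pig 10. The collagen list summed to 773.2, 1684 and 1510 CPM in low pigs 1, 2 and 3 and to 1622, 4184 and 3934 CPM in high pigs 8, 9 and 10, so that high pig 8 lay within the range of the low pigs.

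DCN (ENSSSCG00000000915, chromosome 5, 96109666 to 96143719), decorin, had 187, 294 and 314 CPM in the low pigs and 521, 1055 and 752 CPM in the high pigs, a log2 fold change of 1.55 ± 0.296 (adjusted p = 0.0082) and 1.75 span-adjusted. FMOD, fibromodulin, had 3.77, 8.42 and 6.61 CPM in the low pigs and 18.4, 47.8 and 34.8 CPM in the high pigs, and rose by 2.42 ± 0.39 (adjusted p = 0.0049). TNMD, tenomodulin, a gene of tendon and fascia, was at 0 CPM in low pigs 1 and 3 and at 0.0463 CPM in low pig 2, and had 1.8, 1.21 and 1.57 CPM in the high pigs. KERA, keratocan, rose by 2.96 ± 0.445 (adjusted p = 0.00383) from levels under 1 CPM. THBS2, the matrix protein thrombospondin, rose by 3.04 ± 0.465 (adjusted p = 0.00416), FBLN2, fibulin, by 1.31 ± 0.249 (adjusted p = 0.00811), MFAP5, a microfibril glycoprotein, by 2.11 ± 0.382 (adjusted p = 0.00699) and PCOLCE2, which enhances procollagen cleavage, by 2.21 ± 0.329 (adjusted p = 0.00375). COL3A1, the fibrillar collagen of loose connective tissue, had 322, 712 and 671 CPM in the low pigs and 736, 2086 and 1811 CPM in the high pigs. High pig 8 was only just above low pig 2.

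COL3A1 rose by 1.44 ± 0.416 (adjusted p = 0.0341), COL1A2, a chain of the main fibrillar collagen, by 1.54 ± 0.459 (adjusted p = 0.0382) and COL14A1, a fibril-associated collagen, by 1.82 ± 0.522 (adjusted p = 0.0333). All 3 calls were lost without high pig 9, high pig 10, low pig 1, low pig 2 or low pig 3, with adjusted p up to 0.118, 0.133 and 0.116. Over the collagen list, 0 genes were called without high pig 9, high pig 10, low pig 2 or low pig 3, 1 without low pig 1, and 8 without high pig 8. Those calls came from edgeR's test, in which an arm of 2 pigs is assumed to vary like the other. Matrix glycoproteins had 3 genes higher without low pig 3 or high pig 9, 4 without low pig 1 and 6 without high pig 10. Proteoglycans had 5 without low pig 3.

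Markers of the cells that make the matrix and of other cells beside the fibres were also higher in part. Fibroblast and adipogenic progenitor markers rose in 7 of 15 genes, against 12% of all genes. Of the 15, 13 had a log2 fold change above 0, beside 6309 of all 12228 genes tested. The markers summed to 816 to 1444 CPM in the low pigs and 1631 to 4118 CPM in the high pigs. This sum rests mostly on abundant members, and fibroblast markers may share genes with the matrix lists. It is therefore not independent of the matrix genes above. PDGFRA, which marks fibro-adipogenic progenitors, was not called, at 0.538, 1.71 and 1.07 CPM in the low pigs and 0.321, 2.17 and 1.82 CPM in the high pigs. VIM, vimentin, the intermediate filament of non-muscle cells, rose by 1.58 ± 0.382 (adjusted p = 0.0187). High pig 9 had 832 CPM of VIM against 266 and 401 CPM in high pigs 8 and 10, and without it the log2 fold change was 0.96. That call was lost without low pig 1 or low pig 3 (adjusted p up to 0.0752). The 7 higher markers became 3 without high pig 9, low pig 1 or low pig 3. The part of cell numbers in the higher matrix genes was not tested.

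Macrophage markers summed to 62.3 to 144 CPM in the low pigs and 170 to 259 CPM in the high pigs. All 15 were above 0, beside 6309 of all 12228 genes, and 4 were called higher, against 12% of all genes. Among the 4 was TYROBP (1.37 ± 0.268, adjusted p = 0.00888), a signalling adaptor of myeloid cells. CD14, a receptor for bacterial lipopolysaccharide, rose by 2.06 ± 0.483 (adjusted p = 0.0167), a call lost without high pig 9 (adjusted p = 0.0623), while CD68 was not called (0.24 ± 0.363, adjusted p = 0.646). The 4 higher calls became 2 without high pig 9, high pig 10 or low pig 2. Endothelial markers summed to 249 to 300 CPM in the low pigs and 335 to 427 CPM in the high pigs. Against the same shares of all genes, 12 of 14 were above 0 and 4 were higher. EGFL7, secreted by endothelium, rose by 0.97 ± 0.195 (adjusted p = 0.00989), PECAM1 was not called (0.23 ± 0.188, adjusted p = 0.385), and 1 endothelial gene was called whichever of high pigs 9 and 10 and low pigs 1, 2 and 3 was left out. CD163, CDH5 and VWF, which define these cells, had no match.

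Markers of lymphocytes and neutrophils stayed low, at 17.1 to 24.8 CPM in sum in the low pigs and 26.6 to 39 CPM in the high pigs, with MS4A1 and S100A8 under the filter. Pericyte and smooth muscle markers summed to 3565 to 5377 and 4842 to 6927 CPM, erythroid and platelet markers to 45.2 to 172 and 80.9 to 238 CPM, Schwann cell markers to 16.8 to 20.7 and 17.7 to 29.5 CPM, and satellite cell and myogenic genes to 4079 to 5861 and 5167 to 7305 CPM, in the low and the high pigs respectively. These 4 ranges overlapped between the groups. Such sums rest mostly on the most abundant members. Although the sums of the satellite cell and myogenic list ran higher, its median log2 fold change was -0.225, with 6 of 14 genes above 0. Of the 14, none was called higher and 3 were called lower, against 14.6% of all genes. PAX7, a satellite cell marker, had no match. Cell cycle genes summed to 134 to 147 CPM in the low pigs and 164 to 169 CPM in the high pigs.

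Adipocyte markers were mixed, with 3 higher and 2 lower of 12, and summed to 1647 to 2087 CPM in the low pigs and 1905 to 2324 CPM in the high pigs. ADIPOQ and FABP4 had no match. Their median was 0.694 over the 12 genes but 0.171 over the 9 with coordinates and -0.069 span-adjusted. LIPE, the hormone-sensitive lipase, rose by 1.82 ± 0.333 (adjusted p = 0.00727). PLIN1, which coats the fat droplet, was not called (1.71 ± 0.578, adjusted p = 0.0562) except without high pig 8 (adjusted p = 0.0295).

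Complement and coagulation genes had 7 higher and none lower of 16 (median 1.107, span-adjusted 1.269). CFD, the protease adipsin that starts the alternative pathway and is made in fat, had 58.7, 59.1 and 50.3 CPM in the low pigs and 154, 250 and 180 CPM in the high pigs, a log2 fold change of 1.8 ± 0.21 (adjusted p = 0.00194). Without high pig 9 or low pig 2, 2 of the 16 were called higher, and without high pig 10, low pig 1 or low pig 3, 3. Antigen presentation genes had 9 higher and 1 lower of 21 (median 0.771, span-adjusted 0.483). SLA-DMA, which loads peptide on class II molecules, had 7.12, 9.12 and 9.08 CPM in the low pigs and 15.9, 18.4 and 18.9 CPM in the high pigs, a log2 fold change of 1.07 ± 0.181 (adjusted p = 0.00575). Those 9 calls became 2 without low pig 1, 3 without high pig 10 and 4 without high pig 8 or low pig 3, and class I and II genes are multigene families in which reads may be misassigned. The 1 lower gene was a further identifier of TAP1.

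**Figure D3:**
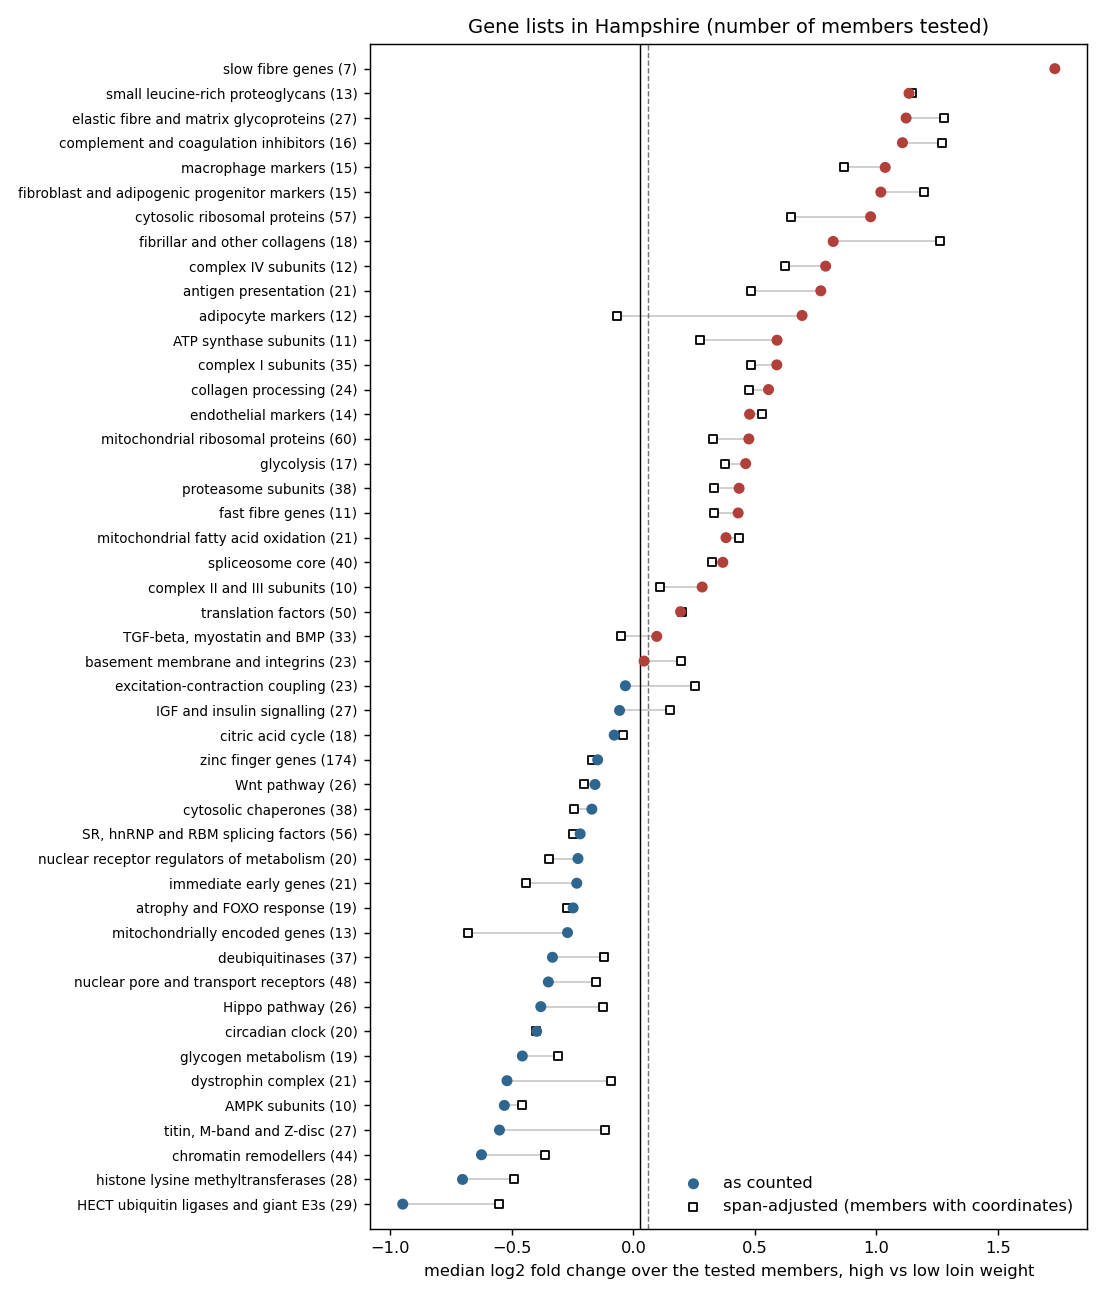
Median log2 fold change of 47 gene lists. Filled circles give the median over all tested members as counted (red above 0, blue below) and open squares the span-adjusted median over the members with coordinates, left out where fewer than 3 had them, with the number tested in parentheses. The solid and dashed vertical lines mark all genes tested, at 0.029 and 0.062. The slow fibre list is at 1.734 and the ubiquitin ligases at -0.949 (-0.555 span-adjusted), while the dystrophin complex moves from -0.52 to -0.092.

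Giant proteins that span or anchor the sarcomere were lower as counted, and much of this went with the long span of their genes. The list of titin-associated, M-band and Z-disc genes had 1 higher and 12 lower of 27 (median -0.551). Over the 21 members with coordinates, the median went from -0.483 as counted to -0.115 span-adjusted, with 1 higher and 6 lower, beside a median of 0.062 and 12.4% lower for all genes. NEB, nebulin, the ruler of the thin filament, had 5944, 5511 and 6306 CPM in the low pigs and 2450, 2167 and 2631 CPM in the high pigs. Its log2 fold change was -1.29 ± 0.188 (adjusted p = 0.00344), and -0.91 span-adjusted. SYNM (ENSSSCG00000029613, chromosome 1, 154019851 to 154044632), the filament protein synemin that links the Z-disc to the membrane, had 305, 272 and 255 CPM in the low pigs and 85.5, 64.9 and 63.5 CPM in the high pigs, a log2 fold change of -1.96 ± 0.183 (adjusted p = 0.00118) and -1.86 span-adjusted. CMYA5, myospryn, fell by 1.67 ± 0.188 (adjusted p = 0.00182), and MYPN, the Z-disc protein myopalladin, by 1.08 ± 0.158 (adjusted p = 0.00344).

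TCAP, the small cap of titin at the Z-disc, was the 1 gene of the list that rose. It had 887, 991 and 1220 CPM in the low pigs and 3259, 1757 and 1436 CPM in the high pigs, a log2 fold change of 1.06 ± 0.309 (adjusted p = 0.0355). The call did not hold in the span-adjusted fit (adjusted p = 0.128), nor without low pig 1, 2 or 3 or high pig 8 or 9 (adjusted p up to 0.11). The 12 lower calls became 6 without low pig 2, low pig 3, high pig 9 or high pig 10.

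The dystrophin complex, which ties the fibre's cytoskeleton to the matrix, had 1 higher and 9 lower of 21 (median -0.52), and 2 higher and 4 lower of 16 span-adjusted (-0.44 as counted, -0.092 adjusted). DMD (ENSSSCG00000028148, chromosome X, 29401752 to 31958390), dystrophin, which spans 2557 kb, had 85.9, 84 and 78.6 CPM in the low pigs and 23, 19.1 and 27.4 CPM in the high pigs. It fell by 1.84 ± 0.176 (adjusted p = 0.00118), and its value relative to genes of like span was -1.31 (adjusted p = 0.00195). SGCB, a sarcoglycan, fell by 1.55 ± 0.252 (adjusted p = 0.0051), whereas SGCA, another member of the same complex, had 92.2, 117 and 99.5 CPM in the low pigs and 206, 227 and 242 CPM in the high pigs and rose by 1.13 ± 0.165 (adjusted p = 0.00344), or 1.02 span-adjusted. The 9 lower calls became 5 without low pig 3.

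Genes of excitation-contraction coupling, which turns the nerve signal into calcium release, had 3 higher and 4 lower of 23 and a median of -0.033. Over the 18 with coordinates the median was 0.136 as counted and 0.255 span-adjusted. CACNA2D1 (ENSSSCG00000015402, chromosome 9, 108068516 to 108551541), a subunit of the calcium channel that senses the membrane potential, had 99, 96.4 and 110 CPM in the low pigs and 20.3, 14.4 and 13.7 CPM in the high pigs. Its log2 fold change of -2.66 ± 0.197 (adjusted p = 0.000841) was -2.17 span-adjusted. TRDN, triadin, which anchors the calcium store's proteins, fell by 1.54 ± 0.188 (adjusted p = 0.00215). RYR1, the calcium release channel, was not called (-0.42 ± 0.246, adjusted p = 0.234) and its groups overlapped. The 3 higher calls became 1 without high pig 9, low pig 1 or low pig 2 and 0 without low pig 3.

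HECT ubiquitin ligases and other very large ligases, which attach ubiquitin to proteins, were lower in 19 of 29 genes and higher in none. All 29 log2 fold changes were below 0 (6309 of all 12228 genes were above 0), with a median of -0.949 for these ligases. These are long genes (median span 97.5 kb), yet relative to genes of like span 16 were lower and the median was -0.555, against 12.4% of all genes that were lower in that fit. Between 16 and 20 were called lower whichever pig was left out. Their summed level was 1750, 1636 and 1698 CPM in the low pigs and 1001, 869.8 and 977.3 CPM in the high pigs. HERC2 (ENSSSCG00000015853, chromosome 15, 63775197 to 63833130), a giant ligase of the DNA damage response, had 6.1, 8.47 and 6.61 CPM in the low pigs and 1.41, 0.866 and 0.877 CPM in the high pigs, and fell by 2.73 ± 0.304 (adjusted p = 0.00174). UBR2, a ligase of the N-degron pathway, fell by 2.17 ± 0.186 (adjusted p = 0.00118) from 24.5, 23.5 and 22.8 CPM to 6.23, 4.5 and 4.95 CPM, and ITCH, a HECT ligase, by 1.68 ± 0.209 (adjusted p = 0.00227).

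Deubiquitinases, which remove ubiquitin, were lower in 14 of 37 genes and higher in none (median -0.333), and in 6 of 33 span-adjusted (-0.121). Their 14 calls became 8 without low pig 3 or high pig 10 and 9 without low pig 2 or high pig 9. Among ubiquitin genes outside these lists, CAND1, which exchanges the substrate receptors of cullin ligases, had 20.7, 17.5 and 17.8 CPM in the low pigs and 2.12, 4.33 and 2.07 CPM in the high pigs, a log2 fold change of -2.74 ± 0.294 (adjusted p = 0.00149). XIAP, an inhibitor of caspases that is also a ligase, fell by 2.48 ± 0.282 (adjusted p = 0.00185).

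Chromatin genes were lower as counted, and less so span-adjusted. Of all genes, 14.6% were lower as counted and 12.4% span-adjusted. Histone lysine methyltransferases had 15 lower and none higher of 28 (median -0.703), and 10 lower and 1 higher of 27 span-adjusted (-0.493). Chromatin remodellers, demethylases and acetyltransferases, which are long genes (median span 76.34 kb), had 24 lower and 1 higher of 44 (-0.625). Span-adjusted, 8 were lower and 1 higher of 43 (-0.364), so that most of their lower calls went with gene span. KMT2C (ENSSSCG00000020663, chromosome 18, 5538430 to 5550748 in this annotation), which methylates histone H3 at enhancers, had 7.65, 8.05 and 8.28 CPM in the low pigs and 1.09, 0.52 and 1.06 CPM in the high pigs, a log2 fold change of -3.12 ± 0.306 (adjusted p = 0.00118). KMT2A, its relative at promoters, fell by 2.85 ± 0.333 (adjusted p = 0.00194) and NSD1 by 1.38 ± 0.148 (adjusted p = 0.00149). SMYD1, a methyltransferase of striated muscle needed for myosin assembly, had 63.7, 54.5 and 54.8 CPM in the low pigs and 14.6, 11.3 and 13.5 CPM in the high pigs, and fell by 2.13 ± 0.169 (adjusted p = 0.001). Without low pig 3 the lower calls were 7 methyltransferases and 6 remodellers, and the remodellers gave 13 without high pig 10 and 15 without high pig 9 or low pig 2.

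Nuclear pore proteins and transport receptors had 3 higher and 15 lower of 48 (median -0.35), and 2 higher and 13 lower of 47 span-adjusted (-0.155), with 12 to 16 lower whichever pig was left out. TNPO1, an import receptor, fell by 1.92 ± 0.318 (adjusted p = 0.00532), from 22.5, 22.8 and 21.7 CPM in the low pigs to 9.24, 3.47 and 4.82 CPM in the high pigs, and XPOT, the exporter of transfer RNA, by 1.66 ± 0.203 (adjusted p = 0.00215). Core spliceosome genes were split, 9 higher and 7 lower of 40, with 1 of the lower ones named differently by the symbol sources. SR, hnRNP and RBM splicing factors had 2 higher and 10 lower of 56 (median -0.219), and 2 higher and 11 lower of 55 span-adjusted (-0.249). Zinc finger genes of the ZNF series had 9 higher and 21 lower of 174 (-0.147), and 3 higher and 25 lower of 152 span-adjusted (-0.169). In both lists the share of lower genes was near the background of 14.6% as counted and above 12.4% span-adjusted, and the share of higher genes was below 12% and 11.5%. Without low pig 3 the spliceosome had 1 higher and 2 lower, the splicing factors 2 lower and the zinc fingers 0 higher and 13 lower, and without high pig 10 the spliceosome had 3 higher and 2 lower, the splicing factors 3 lower and the zinc fingers 1 higher. The 9 higher calls of the spliceosome became 3 without low pig 2, 4 without high pig 9 and 5 without high pig 8, and those of the zinc fingers 1 without low pig 1, 2 without high pig 9 and 3 without low pig 2.

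Growth signalling genes did not move as a block. IGF and insulin signalling had 4 higher and 7 lower of 27, with a median of -0.057 as counted and 0.152 span-adjusted, and its lower calls were 4 without low pig 2 or 3 and its higher calls 2 without low pig 1, low pig 3, high pig 9 or high pig 10. IGF1, the main muscle growth factor, was not called (0.34 ± 0.341, adjusted p = 0.49), at 1.38, 1.57 and 2.34 CPM in the low pigs and 1.67, 2.69 and 2.32 CPM in the high pigs. GHR, the growth hormone receptor, had 35.6, 30.6 and 28.1 CPM in the low pigs and 15.8, 15.4 and 11.8 CPM in the high pigs, a log2 fold change of -1.13 ± 0.183 (adjusted p = 0.0049). TBC1D4, which holds GLUT4 inside the fibre until insulin acts, fell by 1.42 ± 0.246 (adjusted p = 0.00625). IGFBP6, a secreted protein that binds IGF2, rose by 1.79 ± 0.278 (adjusted p = 0.0043), from 13.4, 23.1 and 16.7 CPM to 43.8, 82.5 and 58.6 CPM.

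The atrophy and FOXO response list had 2 higher and 4 lower of 19 (median -0.248). FOXO3, a transcription factor that turns on protein breakdown, had 11.1, 9.3 and 9.61 CPM in the low pigs and 3.53, 2.69 and 3.01 CPM in the high pigs, and fell by 1.7 ± 0.214 (adjusted p = 0.00237). NR3C1 (ENSSSCG00000014401, chromosome 2, 151054873 to 151158579), the glucocorticoid receptor, had 32.1, 34.4 and 37.8 CPM in the low pigs and 9.82, 13.8 and 11.1 CPM in the high pigs, and fell by 1.59 ± 0.181 (adjusted p = 0.00185). FBXO32, the muscle ligase subunit atrogin, fell by 1.26 ± 0.257 (adjusted p = 0.0104), from 40.1, 53.5 and 35.6 CPM to 23.4, 12.1 and 18.4 CPM. TRIM63, the other main atrophy ligase, was not called, at 199.7, 174 and 192 CPM in the low pigs and 195, 126 and 213 CPM in the high pigs.

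The myostatin, TGF-beta and BMP list had 3 higher and 6 lower of 33 (median 0.096), and 5 higher and 2 lower of 29 span-adjusted (-0.049). MSTN, myostatin, the repressor of muscle growth, was not called, with 21, 9.81 and 12.5 CPM in the low pigs and 9.11, 6.67 and 12.3 CPM in the high pigs (-0.62 ± 0.319, adjusted p = 0.178). BMPR2, a receptor for BMPs, fell by 1.08 ± 0.151 (adjusted p = 0.00318). Wnt pathway genes had 1 higher and 6 lower of 26 (median -0.158). Span-adjusted, 2 Wnt genes were higher and 3 lower of 24 (-0.202), a share of lower genes near the 12.4% of all genes in that fit. APC (ENSSSCG00000014207, chromosome 2, 121534758 to 121575617), which marks beta-catenin for destruction, had 22.4, 18.6 and 18 CPM in the low pigs and 3.27, 2.77 and 2.57 CPM in the high pigs, a log2 fold change of -2.77 ± 0.199 (adjusted p = 0.000841) and -2.53 span-adjusted. CTNNB1, beta-catenin itself, was not called (-0.44 ± 0.171, adjusted p = 0.0835) except without high pig 8 (adjusted p = 0.0433). Hippo pathway genes had 1 higher and 8 lower of 26 (-0.381, span-adjusted -0.126), with 7 lower whichever pig was left out. LATS1, its kinase, fell by 1.77 ± 0.244 (adjusted p = 0.00305). Without low pig 3 the lower calls were 2 in the TGF-beta list and 3 in the Wnt list, and without high pig 10 they were 3 in each.

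Nuclear receptors and cofactors that set metabolism had 3 higher and 7 lower of 20 (median -0.228, span-adjusted -0.346). NRIP1, a corepressor of oxidative genes, had 36.2, 33.5 and 27.8 CPM in the low pigs and 5.46, 8.66 and 7.58 CPM in the high pigs, a log2 fold change of -2.17 ± 0.216 (adjusted p = 0.00118). PPARGC1A, the coactivator of mitochondrial biogenesis, fell by 1.74 ± 0.379 (adjusted p = 0.0131), from 7.65, 4.54 and 11.3 CPM to 1.86, 3.21 and 2.0 CPM, and was not called without low pig 3 (adjusted p = 0.0563). ANGPTL4, an inhibitor of lipoprotein lipase, rose by 2.34 ± 0.35 (adjusted p = 0.00376), from 7.83, 5.46 and 6.21 CPM to 16.7, 36.7 and 45.2 CPM. Those 7 lower calls became 1 without low pig 3 and 4 without high pig 10.

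Circadian clock genes had 1 higher and 5 lower of 20 (median -0.398, span-adjusted -0.401). CLOCK, the core activator, was at 2.87, 3.42 and 3.47 CPM in the low pigs and 0.642, 0.606 and 0.188 CPM in the high pigs (-2.77 ± 0.432, adjusted p = 0.00436). The clock list had 3 lower without low pig 3.

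Immediate early genes, which respond within minutes to stimuli, had 0 higher and 3 lower of 21 (median -0.233), near the 14.6% of all genes that were lower. Span-adjusted, 7 of 19 were lower (-0.442), above the 12.4% of all genes in that fit. JUN fell by 0.69 ± 0.206 (adjusted p = 0.0385), a call lost without low pig 2, low pig 3, high pig 9 or high pig 10 (adjusted p up to 0.125), and IER3 by 1.21 ± 0.286 (adjusted p = 0.0173), lost without high pig 10 (adjusted p = 0.0533). FOS was not called and ranged from 57.1 to 266 CPM in the low pigs and from 99.2 to 249 CPM in the high pigs. Cytosolic chaperones, which refold proteins, had 1 higher and 7 lower of 38 (median -0.171), a share of lower genes not far from that of all genes. Span-adjusted, 1 chaperone was higher and 8 were lower of 36 (-0.245), a share of lower genes above the 12.4% of all genes. HSPH1, the nucleotide exchange factor of the large heat shock protein family, had 133, 69.1 and 107 CPM in the low pigs and 26.4, 32.8 and 18.5 CPM in the high pigs, and fell by 1.99 ± 0.287 (adjusted p = 0.00341). HSPA8, the constitutive chaperone, fell by 0.97 ± 0.232 (adjusted p = 0.018), lost without low pig 3 or high pig 10 (adjusted p up to 0.0659). The 7 lower chaperones became 2 without low pig 3 or high pig 10 and 4 without low pig 1, and the 3 lower immediate early genes became 1 without low pig 2 or 3 and 5 without low pig 1.

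**Figure D4:**
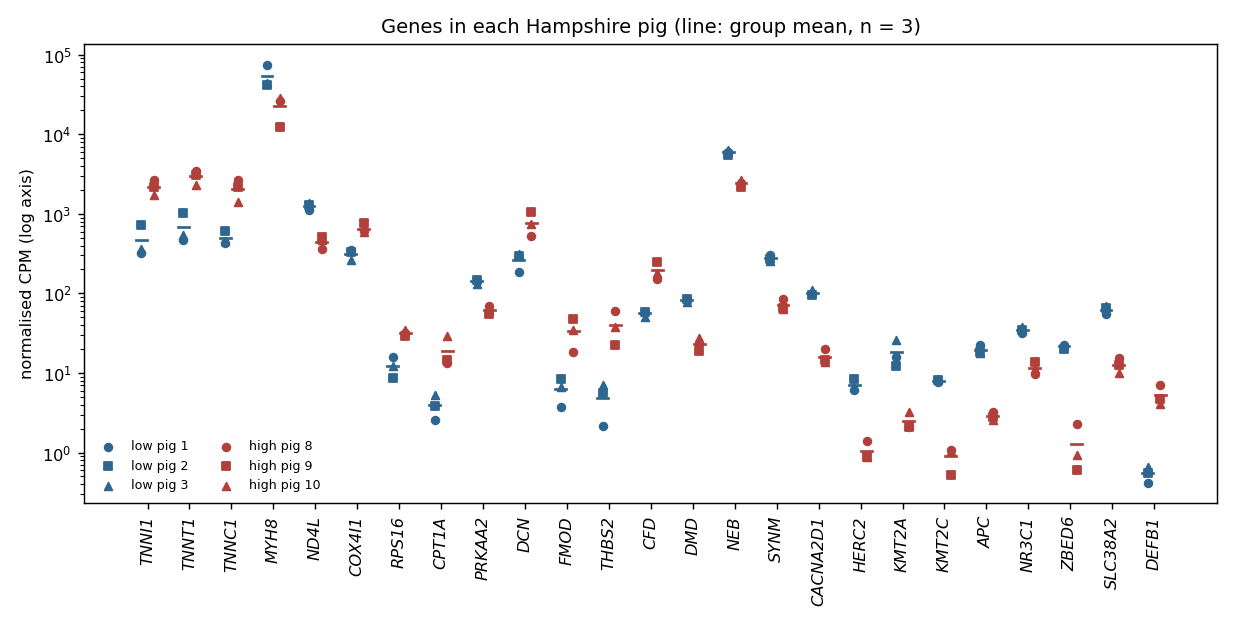
Levels of 25 genes in each Hampshire pig. The vertical axis is CPM on a log axis, with red symbols for the high pigs, blue for the low pigs and a line at each group mean (n = 3). The groups do not overlap in any of the genes drawn. TNNI1 lies between 325 and 721 CPM in the low pigs and between 1748 and 2690 CPM in the high pigs, and PRKAA2 between 133 and 149 CPM and between 54.7 and 69.1 CPM.

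The genes with the smallest span-adjusted p outside the lists are given next. ZBED6 (ENSSSCG00000015274, chromosome 9, 70869462 to 70872407), a repressor of IGF2 in pig muscle, had 22.7, 19.9 and 22.6 CPM in the low pigs and 2.31, 0.606 and 0.94 CPM in the high pigs. The groups lay far apart, and the log2 fold change was -4.04 ± 0.386 (adjusted p = 0.00118), -4.36 span-adjusted and -4.81 without high pig 8. ZBED6 is known to lie inside another gene, ZC3H11A, though the coordinates used here do not overlap. How reads of their transcripts were divided between the identifiers was not tested. ZC3H11A, named in the study's gene tables and counted under ENSSSCG00000028035 (70877652 to 70903649), was added after its values were seen. It had 347, 257 and 314 CPM in the low pigs and 162, 165 and 176 CPM in the high pigs, and fell by 0.87 ± 0.17 (adjusted p = 0.00888), or -0.75 span-adjusted. IGF2 had no match by symbol. SLC38A2 (ENSSSCG00000000808, chromosome 5, 80039269 to 80050523), an amino acid transporter that supplies glutamine, had 54.4, 64.8 and 69.1 CPM in the low pigs and 15.5, 12.6 and 9.9 CPM in the high pigs, and fell by 2.31 ± 0.205 (adjusted p = 0.00118). EGF, a growth factor, fell by 2.04 ± 0.201 (adjusted p = 0.00118) and PRKCA, a calcium-dependent protein kinase, by 2.43 ± 0.218 (adjusted p = 0.00118).

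Further genes of this group that fell were LIMCH1 (ENSSSCG00000008799, chromosome 8, 34048456 to 34405243), an activator of non-muscle myosin, by 2.06 ± 0.155 (adjusted p = 0.000841), MLEC, a lectin of the endoplasmic reticulum, by 2.04 ± 0.181, and LARP1, which holds back messages of ribosomal proteins, by 1.86 ± 0.194. LARP1 had 33.7, 34 and 28.7 CPM in the low pigs and 10.9, 7.8 and 7.83 CPM in the high pigs. TTBK2, a kinase of cilia, fell by 3.36 ± 0.329, ANKRD12, a nuclear ankyrin-repeat protein, by 2.82 ± 0.273, ZHX1, a zinc finger homeobox repressor, by 1.23 ± 0.155 and CU459197.4, known here by its clone name alone, by 2.71 ± 0.248. Their adjusted p lay at or under 0.00237.

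DEFB1 (ENSSSCG00000029990, chromosome 15, 43346318 to 43357071), a defensin peptide, had 0.419, 0.555 and 0.667 CPM in the low pigs and 7.0, 4.68 and 4.07 CPM in the high pigs, and rose by 3.25 ± 0.354 (adjusted p = 0.00153). PDLIM1 (ENSSSCG00000010493, chromosome 14, 116376967 to 116425960), a protein that binds alpha-actinin, rose by 1.32 ± 0.171 (adjusted p = 0.00255), from 21.8, 28.6 and 25.3 CPM to 54.9, 69 and 64.9 CPM. DDB2, a DNA damage sensor, rose by 1.31 ± 0.169 (adjusted p = 0.00253) and GPC3, a cell-surface proteoglycan that binds growth factors, by 1.08 ± 0.21 (adjusted p = 0.0087). NOSIP rose by 1.3 ± 0.169, PEF1 by 0.81 ± 0.151, PRSS12 by 1.09 ± 0.186, B3GNTL1 by 1.26 ± 0.217 and UBL7 by 1.14 ± 0.146, with groups that did not overlap. TCEAL2 rose by 0.68 ± 0.161 (adjusted p = 0.0171), a call lost without low pig 1, low pig 3 or high pig 10 (adjusted p up to 0.0735). An RNA annotated as Metazoa_SRP, the signal recognition particle RNA, was counted identically under a pair of identifiers and rose by 3.83 ± 0.498 (adjusted p = 0.00255). This is a multicopy RNA without the usual poly(A) tail, and its value is uncertain.

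Several genes with the highest span-adjusted fold changes were highest in high pig 9. AGT, angiotensinogen, had 3.05, 5.04 and 3.8 CPM in the low pigs and 7.51, 55.5 and 22.7 CPM in high pigs 8, 9 and 10. Its log2 fold change was 2.83 ± 0.616 (adjusted p = 0.0129), 1.89 without high pig 9 and not called without low pig 3 (adjusted p = 0.0576). EFHD1, a calcium-binding mitochondrial protein, had 25.7 CPM in high pig 9 and 1.91 to 5.76 CPM in the other pigs, with a log2 fold change of 2.33 ± 0.695 (adjusted p = 0.038) that was 0.93 without that pig. F13A1, the clotting factor chain that resident macrophages make, had 18.1 CPM in high pig 9 and 1.38 to 5.39 CPM in the others, 2.13 ± 0.6 (adjusted p = 0.0316) and 1.06 without it. The calls of EFHD1 and F13A1 were lost without high pig 9 or any 1 of the low pigs (adjusted p up to 0.113 and 0.0984). SCARA5, a ferritin receptor of fibroblasts, had 106 CPM in high pig 9, 26 and 63.1 CPM in high pigs 8 and 10 and 9.95 to 18.5 CPM in the low pigs, and its adjusted p of 0.0102 became 0.0516 without low pig 3. Fibroblast markers were also highest in high pig 9, at 4118 CPM in sum, and their part in these values was not tested.

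Genes were also grouped by the root of their symbol, which gave 112 families of at least 10 tested members. The families with the lowest span-adjusted medians were KLHL, adaptors of cullin ligases (-0.739, 9 lower of 26 as counted), HSPA, the main heat shock chaperones (-0.653, 5 of 11), KIF, the kinesin motors (-0.615, 8 of 21), ZBTB, transcription factors that mostly repress (-0.591, 11 of 27), and KCTD, further cullin adaptors (-0.519, 4 of 10), and none of these had a gene higher as counted. As counted, over all tested members, the medians were -0.622 for KLHL, -0.54 for HSPA, -0.422 for KIF, -0.462 for ZBTB and -0.633 for KCTD. KLHL31 (ENSSSCG00000001487, chromosome 7, 31591685 to 31595296), a muscle adaptor needed for sarcomere upkeep, spans 3.61 kb and had 194, 152 and 164 CPM in the low pigs and 57.4, 64.5 and 40.6 CPM in the high pigs. It fell by 1.65 ± 0.209 (adjusted p = 0.00237), and its span-adjusted value was -1.98. ZBTB18, a repressor of myogenic inhibitors, fell by 2.02 ± 0.266 (adjusted p = 0.00255), from 53.3, 39.3 and 46.5 CPM to 15.9, 7.62 and 10.6 CPM. KIF1B, a kinesin that carries mitochondria, fell by 2.33 ± 0.187 (adjusted p = 0.001), from 92, 81.1 and 70.7 CPM to 19.1, 15.4 and 14 CPM.

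The families with the highest span-adjusted medians were COL, the collagens (1.26, 4 higher of 18 as counted), F, the coagulation factors and their receptors (0.659, 5 of 11), RPL (0.611, 31 of 34) and RPS (0.58, 24 higher and 2 lower of 32), the ribosomal proteins, and IL, interleukins and their receptors (0.57, 2 higher and 1 lower of 23). The RPS root also takes in the RPS6K kinases, which are not ribosomal proteins. The ZNF family, the most numerous, stayed at -0.147 as counted and -0.169 span-adjusted.

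**Figure D5:**
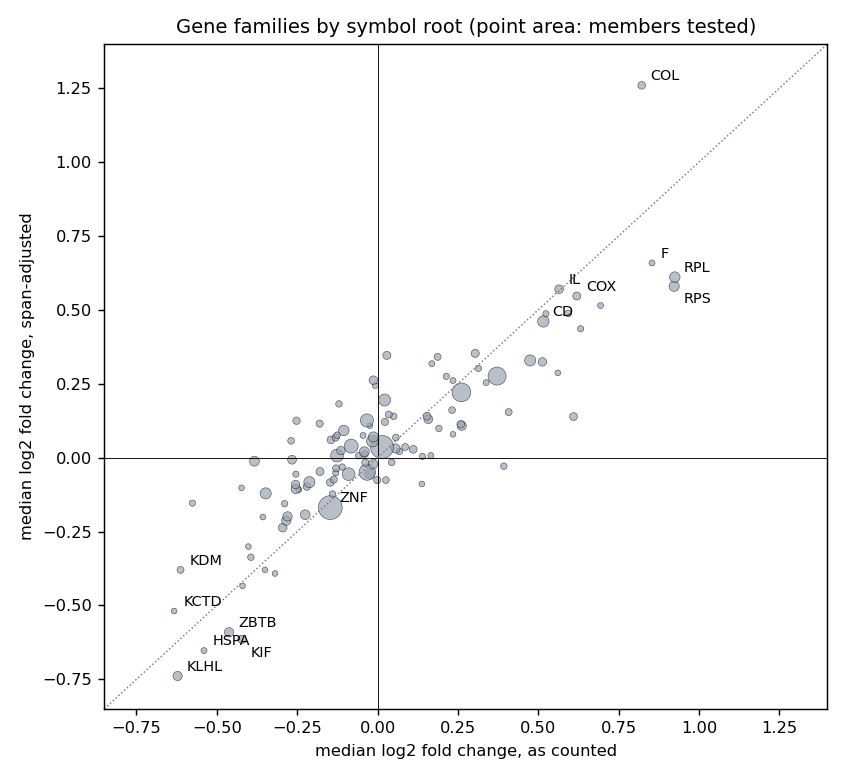
Gene families by symbol root. Each point is a family, its area set by the number of members tested, with the median log2 fold change as counted on the horizontal axis and span-adjusted on the vertical axis, and a dotted line where the values are equal. COL lies at 0.822 and 1.26 at the top, RPL at 0.925 and 0.611 to the right, and KLHL at -0.622 and -0.739 at the bottom left.

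The same contrast was set against that of the 7 Pietrain pigs (4 high and 3 low). Fitted alone, the Pietrain pigs gave no gene that passed edgeR's test among 12065, with 398 genes at an unadjusted p under 0.05. The paper did report DEGs between the Pietrain loin groups, from DESeq2 at the same adjusted p and fold thresholds. For the Hampshire groups it reported far fewer DEGs than the 3256 called here in edgeR or the 3356 in DESeq2. What lies behind that difference was not tested. DESeq2 was not run on the Pietrain pigs here, so how far their count depends on the tool was not tested. Tested directly, as an interaction of breed and loin group over all 13 libraries, 757 of 12831 genes differed between the breeds (5.9%), and 721 of 3240 Hampshire DEGs in that fit (22.3%). The breeds are separate sets of pigs, and breed cannot be told apart from anything else that separates those sets. Among the genes named above, APC, ZBED6, CACNA2D1 and KMT2C passed the test of the difference, whereas for the slow troponins TNNI1 and TNNC1 the difference did not (1.98, adjusted p = 0.49, and 2.01, adjusted p = 0.448), and the same held for DCN (1.34, adjusted p = 0.0975) and COX4I1 (0.97, adjusted p = 0.143).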

How the data were processed

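Libraries were made by the study with the TruSeq RNA kit v2, which keeps no strand, from 300 ng of total RNA with an RNA integrity number above 7.5, and sequenced as 101-base single reads in 4 technical repeats. The authors deposited whole-number counts per Ensembl gene on Sscrofa10.2, and the submitters' processing notes name FastQC, STAR, RSEM and DESeq2 without versions. Deposited result tables with fold changes and p-values were used only for gene names and coordinates. Symbols were found for 13168 of 25322 genes, 11804 in a gene name table and 1364 in those tables.

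The counts were tested here in edgeR 4.0.16 (R 4.3.3; TMM scaling, filterByExpr by group, quasi-likelihood, Benjamini-Hochberg adjustment) on the 6 Hampshire libraries. For the span-adjusted fit, a loess curve (span 0.5, degree 1) of each library's log2 CPM deviation on log10 gene span entered as an offset. The breed difference was an interaction term over 13 libraries. Scripts were tested on simulated data. The comparison, its 75 gene lists and the tests were chosen with earlier results of these data known, and 43 genes of the study's tables were left out of the lists. Genes were named by a fixed rule: marked genes and up to 4 members of smallest adjusted p per list, in each direction the 12 genes of smallest span-adjusted p outside the lists and the 6 of largest span-adjusted change at 5 CPM or more, and members of the 5 families at each end. ACTA1 was named as a tissue check, and the second TAP1 identifier after its values were seen. Alternatives were DESeq2 1.42.0, its size factors (RLE), other filters and leaving out each pig. Coordinates are on Sscrofa10.2. Some genes that the rule names are not reported here. Exon lengths, GC content and sequences were not used here.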

Additional observations from a re-analysis of the deposited data

Results flagged for a closer look

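For 52 of the genes named above, or 53 of 131 identifiers (ND4 left out of this count), the log2 fold change of the Hampshire pigs differed from that of the Pietrain pigs in edgeR's test of the interaction (adjusted p under 0.05), against 5.9% of all genes tested and 22.3% of Hampshire DEGs. Genes were named in large part for their values in the same Hampshire pigs, so that neither their number nor the sign of the difference is independent of that choice. Each value below is the Hampshire log2 fold change minus the Pietrain one.

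In protein synthesis the difference was 1.24 for RPS16 and 1.53 for EIF4EBP1. In energy metabolism it was -1.11 for PPP1R3A, -0.93 for PRKAA2, -1.76 for PRKAB2 and -1.84 for HK2. In the matrix it was 2.15 for PCOLCE2. In the sarcomere, the membrane complex and calcium release it was -0.97 for NEB, -1.99 for SYNM, -1.47 for CMYA5, -1.13 for MYPN, -1.68 for DMD, 1.19 for SGCA, -2.46 for CACNA2D1 and -1.43 for TRDN.

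Among ubiquitin genes it was -2.84 for HERC2, -1.85 for UBR2, -1.34 for ITCH, -3.18 for CAND1, -1.58 for KLHL31 and -2.29 for XIAP. Among chromatin and nuclear transport genes it was -3.43 for KMT2C, -2.55 for KMT2A, -2.36 for SMYD1, -1.27 for NSD1, -1.76 for TNPO1 and -1.17 for XPOT. In signalling, the atrophy response and the clock it was -1.56 for TBC1D4, -2.55 for FOXO3, -1.23 for NR3C1, -2.65 for FBXO32, -2.73 for APC, -1.51 for LATS1, -2.34 for NRIP1 and -2.76 for CLOCK, and -2.08 for the chaperone HSPH1.

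Outside the lists it was -4.11 for ZBED6, -2.12 for MLEC, -1.88 for LIMCH1, -1.07 for ZHX1, -2.77 for PRKCA, -2.06 for EGF, -3.42 for TTBK2, -2.0 for LARP1, -2.35 for ANKRD12, -2.39 for CU459197.4, 3.46 for DEFB1, 1.87 for DDB2, 1.5 for PRSS12, -2.33 for KIF1B, -2.15 for ZBTB18 and 3.84 for Metazoa_SRP, which carries a pair of identifiers with the same counts. The number of genes that differed between breeds was 757 over all 6 Hampshire pigs and 379 without low pig 3.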

How the results depend on the processing

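The 3256 DEGs became 3356 with DESeq2, 3237 with RLE size factors, 2970 without a filter, 2981 with at least 10 counts in every library and 3256 with no fold threshold. Leaving out 1 pig gave 1224 to 3049. The 2373 span-adjusted DEGs became 2430 with a straight line in log10 span and 889 to 2313 with a pig left out (889 without low pig 3, 1125 without high pig 10, 1427 without high pig 9). The difference between breeds, 757 genes, gave 742 with RLE size factors and 379 to 819 with a Hampshire pig left out (379 without low pig 3, 424 without high pig 9, 487 without low pig 2, 491 without high pig 10). The rank correlation of span and fold change lay between -0.402 and -0.366 in all settings run. The median of the adipocyte list, 0.694 over 12 genes and 0.171 over the 9 with coordinates, was -0.069 over those 9 in the span-adjusted fit (-0.042 with the straight line). The adjustment turned the median of IGF and insulin signalling from -0.057 (-0.042 over the genes with coordinates) to 0.152 (0.124 with the straight line). It turned that of the TGF-beta list from 0.096 to -0.049. Excitation-contraction coupling had a median of -0.033 over all 23 genes, 0.136 over the 18 with coordinates and 0.255 over those 18 span-adjusted. The counted medians of these last 2 lists were within 1 SD between pigs of 0. Beside the adipocyte and IGF lists, 17 of the 47 span-adjusted medians differed from the counted ones by more than the spread between pigs. The last 2 lists were among them. These counted medians were taken over all members and the span-adjusted ones over the members with coordinates. DESeq2 and RLE moved none by more than that spread. A pig left out moved 4 to 10 list medians by more than that spread. Of the genes named, 54 were called higher and 63 lower, none of these changed sign in any setting run, and 21 lost their call without low pig 3. No paired analysis was possible because the high and low groups share no pig number. With 3 pigs per group, a fold that misses the threshold is not shown to be absent.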

Other observations

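The remaining gene lists were read against the same background of 12% higher and 14.6% lower. Cohesin and the structural maintenance of chromosomes, which hold sister chromatids and fold the genome, had 7 lower and none higher of 14 (median log2 fold change -0.557, span-adjusted -0.314 with 3 lower). Genes of mRNA decay and the microRNA machinery had 3 higher and 11 lower of 42 (-0.381, span-adjusted -0.201), coats of membrane trafficking 3 higher and 13 lower of 39 (-0.138), and kinesins, dyneins and dynactin 2 higher and 9 lower of 39 (-0.116). Endoplasmic reticulum chaperones had 5 lower of 21 in either fit, though their median was 0.011 (0.088 over the 20 with coordinates). The mTOR pathway, which couples nutrients to growth, was split at 8 higher and 8 lower of 26 (0.221). With 1 pig left out, 3 to 8 mTOR genes were higher (3 without high pig 9, low pig 2 or low pig 3, 5 without high pig 10) and 4 to 6 lower (4 without high pig 10 or low pig 3, 5 without low pig 2), and the lower calls were 3 to 8 in cohesin (3 without high pig 10 or low pig 3, 4 without low pig 1), 6 to 14 in the coats (6 without low pig 3, 7 without high pig 10), 5 to 11 in mRNA decay (5 without low pig 3, 7 without high pig 10) and 2 to 4 in endoplasmic reticulum chaperones (2 without high pig 10 or low pig 3, 3 without high pig 8 or high pig 9).

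Antioxidant enzymes had 6 higher and 2 lower of 25 (0.285), 3 higher without low pig 3, and 7 higher and 2 lower span-adjusted. Satellite cell and myogenic factors had 3 lower of 14 (-0.225). Calpains and cathepsins, the lysosomal and calcium-dependent proteases, had 4 higher and 3 lower of 26 (0.188), autophagy 4 higher and 5 lower of 38 (0.062), and the vacuolar ATPase 3 higher and 1 lower of 13 (-0.055). Mediator had 3 higher and 4 lower of 28 (0.21), RNA polymerase II 3 higher and 1 lower of 10 (0.337), tRNA synthetases 1 higher and 3 lower of 19 (-0.131), mitochondrial import 2 higher and 1 lower of 22 (0.309) and mitochondrial carriers 5 higher and 4 lower of 34 (0.055). Cholesterol synthesis and uptake had 4 higher and 4 lower of 27 (-0.034), RAB GTPases 4 higher and 7 lower of 33 (-0.177), hypoxia and angiogenesis 1 higher and 4 lower of 15 (-0.047), the creatine and adenylate buffer 1 higher of 10 (0.501) and the interferon response 1 lower of 30 (-0.259). A single metallothionein was tested and was higher (1.948), and cell cycle genes had 3 higher and 1 lower of 19 (0.387). Pericyte and smooth muscle markers had 2 higher and 1 lower of 13 (0.53) and lymphocyte and neutrophil markers 1 higher of 11 (0.759), while none of 4 erythroid and platelet markers (0.245) and none of 4 Schwann cell markers (0.423) passed edgeR's test.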
